A study of Mus musculus with 18 samples.

Results

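Leptin (Lep, ENSMUSG00000059201) and the leptin receptor (Lepr, ENSMUSG00000057722) were followed through all 18 libraries of a messenger RNA sequencing study of epididymal white adipose tissue (eWAT, the fat pad beside the epididymis) and liver. The members were the 2 of 23474 genes in the deposited table whose Ensembl identifiers carry those symbols. All animals were male C57BL/6J mice, a strain that the strain field of the labels spells C56BL/6J, aged 17 weeks. From 5 weeks of age they had been kept for 12 weeks on a normal diet (ND) or on a high-fat diet, on which mice were classed as prone (HP) or resistant (HR). Each of the 6 groups of tissue and diet had 3 libraries. The labels give no genetic change or drug in any group, do not say how prone and resistant mice were told apart or when in the feeding cycle tissue was taken, and do not tie libraries to separate animals, so the p-values speak only to variation among these libraries, which may be technical.

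Leptin is a hormone that adipocytes secrete in relation to their fat store, and it acts on the hypothalamus to restrain feeding. Its receptor is a class I cytokine receptor. The long form signals through the kinase JAK2 to the transcription factor STAT3, and the pathway is damped by SOCS3 and by the phosphatase PTP1B, encoded by Ptpn1. Short and soluble forms also exist, and in rodents the liver is a known source of the soluble form. The values here are per gene, so the forms of Lepr cannot be told apart.

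Leptin transcription in adipocytes is known to depend on the proximal promoter, where C/EBP alpha acts. The stretch below, from RefSeq (GRCm38.p6, plus strand, chr6:29060016-29060215), ends 5 bases before the annotated start of Lep. It is shown because the levels of C/EBP genes are given further on. Capitals mark the C/EBP palindrome TTGCGCAA and the TATA box motif TATAA, which matched on both strands with overlap.
Lep promoter: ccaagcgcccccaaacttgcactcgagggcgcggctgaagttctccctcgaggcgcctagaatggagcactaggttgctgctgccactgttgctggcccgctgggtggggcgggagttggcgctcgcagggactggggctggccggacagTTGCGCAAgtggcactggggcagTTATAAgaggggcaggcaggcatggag
The palindrome began 55 bases before the start. It was found on either strand in the 250 bases before the start in 0.164% of 32851 RefSeq promoters, and TATAA in 22.8%. Neither motif was found in those 250 bases before either of the annotated starts of Lepr, which says only that these letters are not in the window.

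The unit throughout is FPKM, fragments scaled by transcript length and by the size of the library, and tests were made with limma on log2(FPKM + 1). Absolute depth is unknown. The steps of low values gave the liver libraries relative depths of 0.877 to 1.09 against liver ND 2. The eWAT libraries were not alike. ND 1 and HR 2 had median correlations with the other eWAT libraries of 0.328 and 0.425, against 0.81 to 0.935 for the other 7. Their totals over Prm1, Prm2, Tnp1 and Tnp2, which mark spermatids, reached 92410 and 11230 FPKM, against 7.47 to 2282 in the other 7, of which ND 3 held 2282 and HP 1 held 1738. Epididymis genes (Lcn8, Gpx5 and Crisp1) summed to 15290 FPKM in ND 1 and 1172 in HP 2, so the 7 were not free of such RNA. Their totals over the adipocyte genes Adipoq, Fabp4, Plin1 and Cidec were 3533 and 4760 FPKM, against 14980 to 29570 in the other 7. Lep and Lepr in eWAT are therefore given with all 9 libraries and with the 7 others, and genes of like pattern over the 7 alone. Hepatocyte markers were high in the liver libraries, with one exception: Alb, albumin, and mt-Co1 were listed at 0 in liver HP 3, so a listed 0 in this table is not proof of absence.

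In fat, the Lep values of prone mice stood above those of mice on normal diet. The ND libraries held Lep at 7.97 (ND 1), 323 (ND 2) and 317 FPKM (ND 3). In prone mice it was at 899, 1196 and 1186 FPKM in HP 1, HP 2 and HP 3. In resistant mice it was at 798, 142 and 1193 FPKM in HR 1, HR 2 and HR 3. All 3 HP libraries lay above all 3 ND libraries, while HR 2, a library with little adipocyte RNA, lay below ND 2 and ND 3. In bulk tissue, fewer adipocytes and less Lep RNA per adipocyte cannot be told apart.

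Over 9 libraries the mean of Lep was 5.07-fold higher in HP than in ND, and on the log2 scale 3.48 higher (95% interval 0.26 to 6.70, SE 1.40), which did not pass (limma adjusted p = 0.387). In that comparison 2.11% of the 14430 genes tested passed. For HR against ND, 3.3-fold by mean, it was 2.403 higher (adjusted p = 0.99 by limma, SE 1.40), and no gene of the table passed (0%, with 392 at an unadjusted p under 0.05). Without ND 1 and HR 2, Lep rose in both groups on the high-fat diet. The rise was 3.42-fold in HP, or 1.76 on the log2 scale (adjusted p = 0.00211 by limma, SE 0.22), where 23.1% of 13054 genes passed. It was 3.11-fold in HR, or 1.61 (adjusted p = 0.0164 by limma, SE 0.24), where 4.14% passed. That fit holds 2 ND and 2 HR libraries. The call in HR was lost when HR 3 was also left out (1.32, adjusted p = 0.104).

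No difference in Lep between prone and resistant mice passed the test. Over the 7 libraries the difference between HP and HR was 0.15 on the log2 scale, with a 95% interval of -0.36 to 0.67 (limma adjusted p = 0.733, with 6.46% of genes passing), and over 9 libraries it was 1.08 (interval -2.14 to 4.29, adjusted p = 0.958, with 0% of genes passing and 679 at an unadjusted p under 0.05). The interval over 7 libraries leaves room for a modest difference in either direction.

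**Figure D1:**
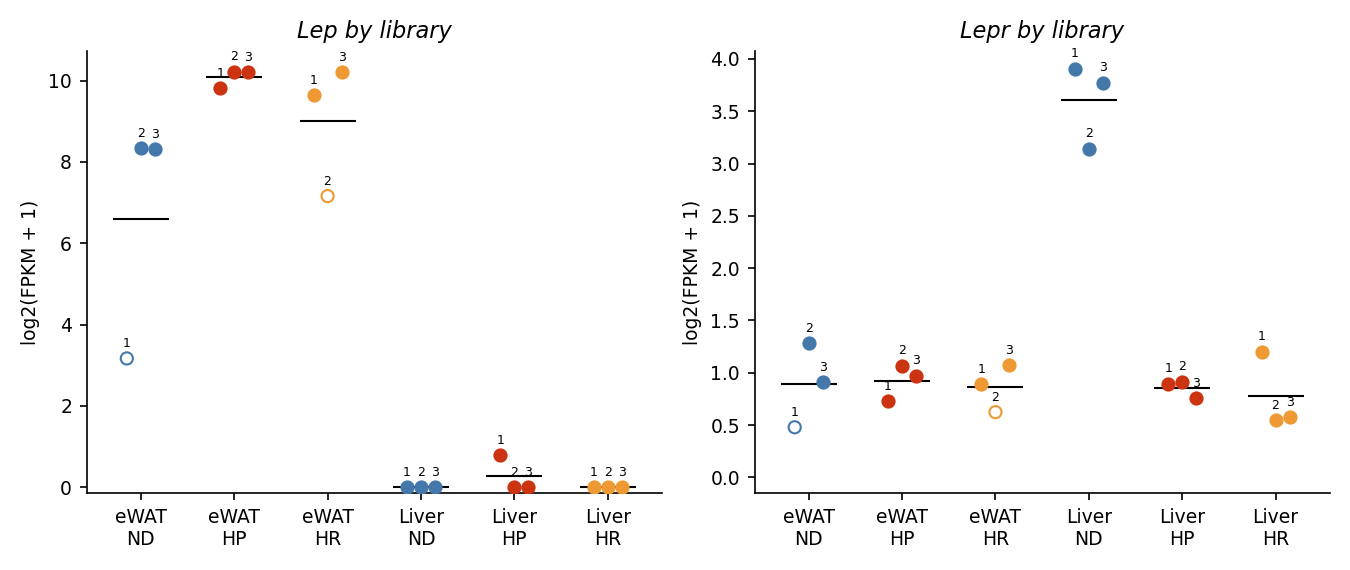
Lep (left) and Lepr (right) in each of the 18 libraries, as log2(FPKM + 1), by tissue and diet. Points are libraries numbered by replicate, lines are means of 3, and open points are eWAT ND 1 and HR 2. Lep is high only in eWAT, and Lepr is high only in the 3 ND livers.

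Leptin was next set against adipocyte RNA, since that RNA varied among the eWAT libraries. Per 1000 FPKM of the 4 adipocyte transcripts, Lep was at 2.26, 10.9 and 16.9 in the ND libraries, at 51.2, 72.8 and 79.2 in HP and at 35.2, 29.8 and 62.5 in HR. On this ratio HR 2 lay with the other HR libraries and above all ND libraries, so neither HP nor HR overlapped ND. ND 1 remained the lowest. The mean log2 ratio was 3.16 higher in HP than in ND (an 8.91-fold difference) and 2.43 higher in HR than in ND. Each had p = 0.10 by an exact two-sided permutation test (n = 3 and 3), which is the smallest p that 3 against 3 can give. Without ND 1 and HR 2 the differences were 2.29 (4.90-fold) and 1.79 (3.45-fold). HP and HR overlapped on the ratio to the 4 transcripts, with a log2 difference of 0.72 (exact permutation p = 0.2, n = 3 and 3). With Adipoq alone or Plin1 alone as the reference they did not overlap. Per FPKM of Adipoq, Lep was at 0.875, 1.15 and 1.31 in HP and at 0.429, 0.411 and 0.767 in HR. Per FPKM of Plin1 it was at 2.62, 3.81 and 3.48 in HP and at 1.21, 1.18 and 1.76 in HR. Fabp4 alone and Cidec alone were not used as references. The ratio also moves with its denominator. Over the 7 libraries the largest part of it, Fabp4, a fatty acid binding protein, averaged 18160 FPKM in ND and 13380 in HP (-0.38, limma adjusted p = 0.438). Over the same 7, Cidec, Plin1 and Adipoq were lower by 0.88, 1.06 and 1.19 in HP than in ND. Over all 9 libraries the reading depended on the scale. Mean FPKM in ND and HP was 2043 and 1619 for Cidec, 482 and 333 for Plin1 and 1603 and 990.5 for Adipoq. On the log2 scale, where the low values of ND 1 weigh more, no such fall was seen. There the mean log2(FPKM + 1) in ND and HP was 10.2 and 10.66 for Cidec, 8.26 and 8.38 for Plin1 and 9.98 and 9.95 for Adipoq.

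**Figure D2:**
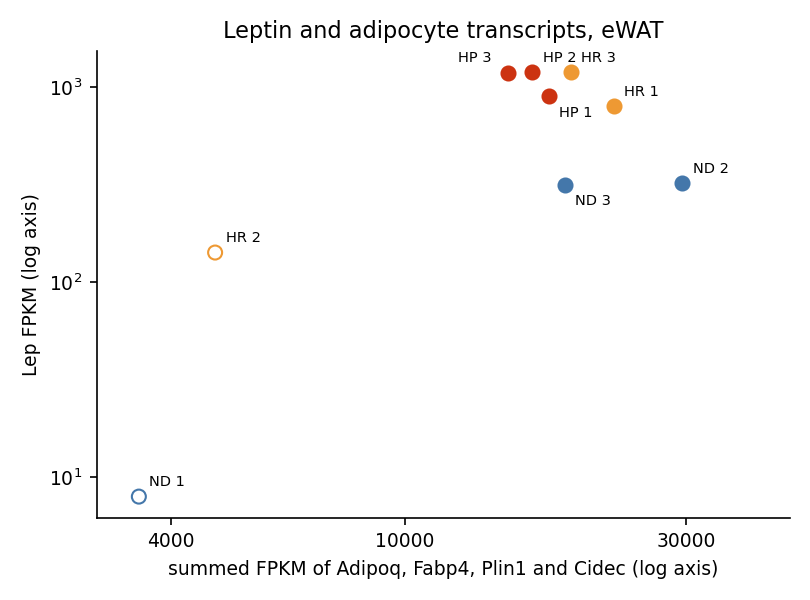
Lep FPKM against the summed FPKM of 4 adipocyte transcripts in the 9 eWAT libraries, both on log axes, with open points for ND 1 and HR 2. HP 1 to HP 3, HR 1 and HR 3 lie at 798 to 1196 FPKM of Lep, ND 2 and ND 3 at 323 and 317, and ND 1 and HR 2 lie to the left.

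In liver, Lep was listed at 0 in 8 of 9 libraries and at 0.723 FPKM in HP 1, so it was not tested there. The adipocyte genes Adipoq and Plin1 were at 1.40 and 0.399 FPKM in that same library. Adipoq was listed at 0 in 7 of the other liver libraries and at 0.174 in HP 3.

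The receptor was high in liver on normal diet and low elsewhere. In liver on normal diet, Lepr stood at 14.0 (ND 1), 7.81 (ND 2) and 12.7 FPKM (ND 3). In the prone livers it was at 0.862, 0.886 and 0.689 FPKM, and in the resistant livers at 1.30, 0.464 and 0.488 FPKM. The lowest ND liver was far above the highest liver on the high-fat diet, and the HP and HR livers overlapped. By mean the receptor was 14.1-fold lower in HP (0.812 ± 0.107 FPKM, SD, n = 3) and 15.3-fold lower in HR (0.751 ± 0.476 FPKM) than in ND (11.5 ± 3.25 FPKM).

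Lepr fell in both diet groups of liver. The log2 difference was -2.75 for HP against ND (SE 0.22, limma adjusted p = 6.49e-05), in a comparison where 31.7% of 10633 genes passed. It was -2.83 for HR against ND (SE 0.22, limma adjusted p = 0.000151), where 3.24% passed. These differences are on the log2(FPKM + 1) scale and understate the fold, since the livers on the high-fat diet lie near 1 FPKM. With a pseudocount of 0.1 FPKM they were -3.63 and -3.86. By size, 8 of the 10633 genes had a larger negative difference than Lepr in HP, and 1 had in HR. Between HP and HR the difference was 0.08 (95% interval -0.41 to 0.57, adjusted p = 0.833, with 11.1% of genes passing). In liver Lepr met the filter through the ND libraries and HR 1, and the other livers lay below 1 FPKM. At that level log2(FPKM + 1) compresses differences, so the interval does not show that HP and HR are alike.

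Lepr is known to be expressed in some endothelial and mesenchymal cells, so markers of those cells are given beside it. The endothelial genes Pecam1, Cdh5, Kdr and Tek, none at 0, summed to 15.7 to 17.7 FPKM in ND livers, 8.74 to 11.9 in HP and 8.40 to 14.8 in HR. The stellate cell genes Colec11, Des and Reln summed to 23.3 to 33.1, 32.0 to 39.2 and 16.1 to 28.2 FPKM, and Lrat, the defining gene of that list, was listed at 0 in all 9 livers. Colec11 was at 12.1 to 18.3 FPKM in ND and 19.8 to 25.96 in HP, and Reln at 10.2 to 13.6 and 9.09 to 11.3. The hepatocyte genes Alb, Apoa1, Ttr and Apob summed to 30840 to 35320 FPKM in ND and 33760 to 39800 in HR, and 34580, 43730 and 12700 in HP, the last being the library where Alb is listed at 0. The part of these cell types in the level of Lepr was not tested.

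In fat the receptor was low in every group. Lepr was at 0.394, 1.43 and 0.877 FPKM in ND, at 0.657, 1.10 and 0.961 in HP and at 0.857, 0.541 and 1.10 in HR. The 3 groups overlapped. The log2 differences were 0.03 for HP against ND, -0.03 for HR against ND and 0.06 for HP against HR, with 95% intervals of -0.68 to 0.75, -0.74 to 0.69 and -0.65 to 0.77 (limma adjusted p = 0.961, 0.997 and 0.981). Over the 7 libraries they were -0.17, -0.11 and -0.06 (adjusted p from 0.648 to 0.913). Lepr met the filter of at least 1 FPKM in at least 3 libraries through ND 2, HP 2 and HR 3 alone, so these values sit at the low end of what was tested.

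Ordered by mean, Lepr was highest in ND liver at 11.5 FPKM. It was followed by HP, ND and HR fat at 0.905, 0.901 and 0.833 FPKM and by HP and HR liver at 0.812 and 0.751 FPKM. These last 5 groups overlapped one another. On normal diet every liver library exceeded every fat library. ND fat held Lepr at a mean log2(FPKM + 1) of 0.89, so it could not show a fall as large as that of liver. A tissue difference is therefore no measure of a response particular to liver. The difference between tissues in the diet contrast, fat minus liver, was tested over all 18 libraries. It was 2.78 for HP against ND (SE 0.39, limma adjusted p = 0.00119), where 4.98% of 15006 genes passed, and 2.80 for HR against ND (SE 0.39, adjusted p = 0.0206), where 0.0600% passed. Without eWAT ND 1 and HR 2 these were 2.58 and 2.72 (adjusted p = 7.84e-05 and 0.000388), where 27.9% and 7.16% of genes passed. The call for HR against ND over 18 libraries was lost with quantile normalization (2.61, adjusted p = 0.148), with only the groups compared in the fit (2.80, adjusted p = 0.56), with a replicate block (adjusted p = 0.0539) and on leaving out any one of eWAT HR 1, eWAT HR 3 and liver ND 1, ND 3, HR 2 or HR 3 (2.65 to 2.79, adjusted p from 0.0646 to 0.104). For HP against HR it was -0.02 (95% interval -0.85 to 0.81, adjusted p = 0.99, with 0.0733% of genes passing).

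**Figure D3:**
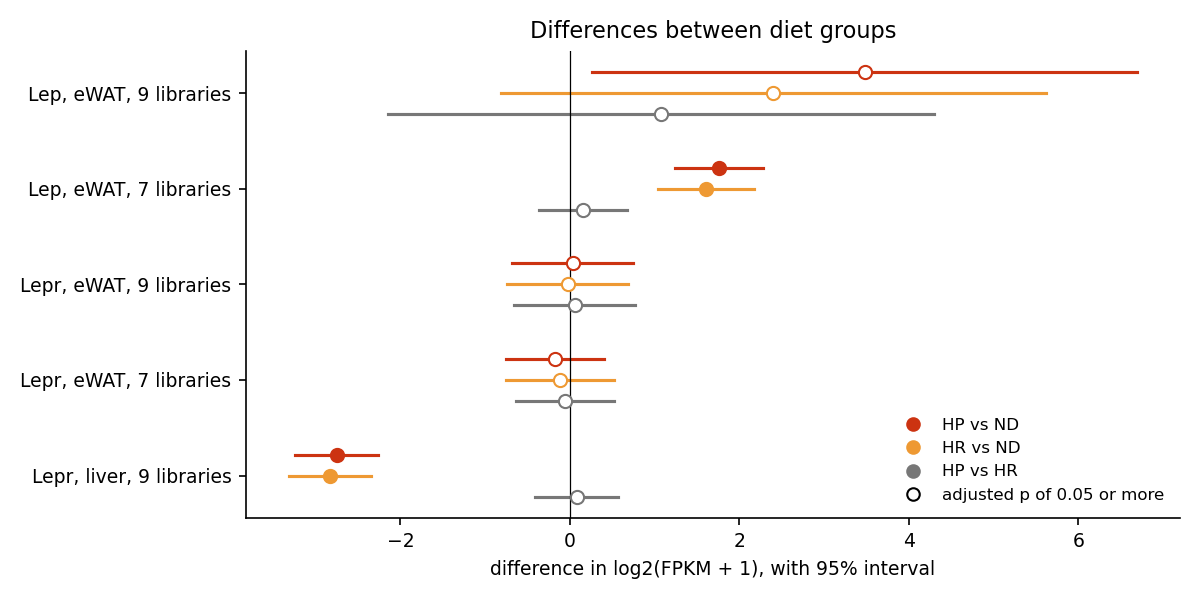
Differences in log2(FPKM + 1) between diet groups for Lep in eWAT and Lepr in eWAT and liver, with 95% intervals from limma and filled points for adjusted p under 0.05. The intervals of Lepr in liver against ND lie between -3.32 and -2.26, and every interval for HP against HR spans 0.

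Genes of like pattern were ranked by Pearson's r of log2(FPKM + 1). Such correlations are descriptive, since the libraries compared share diet group, composition and depth. For Lep over the 7 eWAT libraries, the closest of 9389 genes were Slc5a7, a choline transporter (r = 0.998), Ikzf1, a lymphoid transcription factor (0.995), Endod1 (0.994), Gpr50, an orphan receptor (0.99), and Lipf, gastric lipase (0.988). Slc5a7 averaged 6.07 FPKM in ND, 26.2 in HP and 24.0 in HR, and Gpr50 averaged 0.166, 26.5 and 23.9. Since the genes were picked by r, group means like those of Lep follow from the choice. Ikzf1, Gpr50 and Lipf averaged 3.75, 0.166 and 1.24 FPKM in ND. They met the required mean of at least 5 FPKM only through HP and HR. For Lepr over the 9 liver libraries, the closest of 6570 genes were Lamb3, a laminin subunit (r = 0.978), Mgll, monoacylglycerol lipase (0.974), Tmed5, a cargo protein of early secretion (0.97), Crat, carnitine acetyltransferase (0.962), and Paqr9 (0.956). Lamb3 averaged 17.9 FPKM in ND, 6.04 in HP and 4.87 in HR, and Mgll 151, 104 and 101, so both fell less in proportion than Lepr. For Lepr over the 7 eWAT libraries they were Ddx3y, Nr3c1, Pnpla8, Rb1 and Rnf14, with r from 0.956 to 0.991, over a range of Lepr that is narrow.

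The wider pathway was read from 6 lists that hold 59 genes, of which 58 have a row in the table. Leprot, the endosomal protein that lowers receptor display at the cell surface and whose gene neighbours Lepr without overlap in GENCODE M21, did not pass in liver. It was at 9.94, 10.2 and 10.7 FPKM in ND, at 10.3, 10.2 and 12.1 in HP and at 8.58, 11.0 and 9.05 in HR. Its log2 difference was 0.07 for HP against ND (95% interval -0.20 to 0.34, limma adjusted p = 0.687) and -0.10 for HR against ND (interval -0.38 to 0.17, adjusted p = 0.681). In fat it was at 50.2 and 51.0 FPKM in ND 2 and ND 3 (9.28 in ND 1), at 94.0, 86.4 and 93.6 in HP and at 65.1 and 64.3 in HR 1 and HR 3 (24.1 in HR 2). Leprot rose in HP fat over the 7 libraries (0.84, SE 0.10, adjusted p = 0.00179), as did its relative Leprotl1 (0.78, adjusted p = 0.0116, or 0.72 and 0.0594 with quantile normalization). Over 9 libraries Leprot and Leprotl1 differed by 1.61 and 0.93 (adjusted p = 0.411 and 0.342).

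Among other class I and related cytokine receptors in liver, 3 of 8 tested fell in HP, where 14.1% of all genes fell, and none passed in HR, where 0.969% fell. After libraries were rescaled to the same sum 5 fell in HP, against 22.9% of all genes. Lifr, the receptor of leukemia inhibitory factor, had 45.2, 34.8 and 48.9 FPKM in ND, 23.2, 13.9 and 11.9 in HP and 45.5, 56.0 and 36.6 in HR. It fell by 1.38 on the log2 scale in HP against ND (SE 0.23, limma adjusted p = 0.00238) and was lower in HP than in HR by -1.47 (adjusted p = 0.00642). Il6st, the shared chain gp130, and Il13ra1 fell by 0.53 each (adjusted p = 0.0287 and 0.0153). Ghr, the growth hormone receptor, was at 170 to 182 FPKM in ND, 168 to 196 in HP and 183 to 218 in HR (0.01 for HP against ND, interval -0.25 to 0.27, adjusted p = 0.965). The list had a median of -0.32 for HP against ND, against -0.02 over all genes tested, and of 0.11 for HR against ND, against 0.01.

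**Figure D4:**
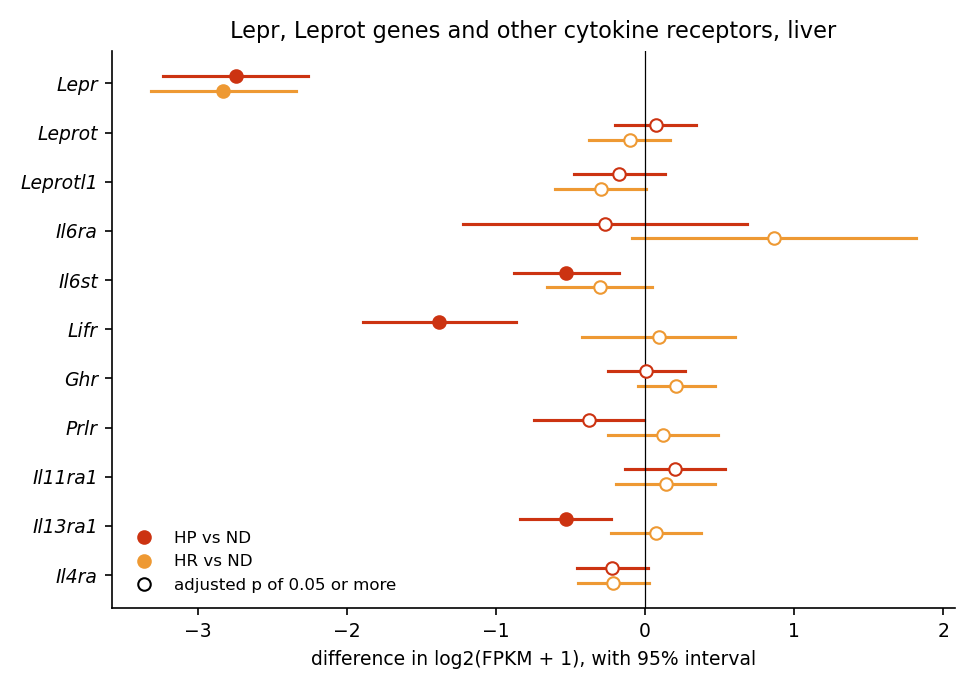
Differences from ND in log2(FPKM + 1) in liver for Lepr, Leprot, Leprotl1 and the 8 other receptors tested, with 95% intervals from limma and filled points for adjusted p under 0.05. Lepr lies at -2.75 and -2.83, and Lifr, Il6st and Il13ra1 have filled points for HP against ND.

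Of 19 signal transducers tested in liver, 9 fell and 2 rose in HP against ND, where 14.1% of all genes fell and 17.6% rose, with a list median of -0.37 against -0.02 over all genes. After rescaling 11 fell and none rose, against 22.9% lower and 10.4% higher over all genes. Stat3 fell from 22.3, 24.3 and 30.9 FPKM in ND to 15.1, 13.5 and 17.9 in HP (-0.70, SE 0.15, limma adjusted p = 0.00759). It was at 21.6, 27.3 and 22.8 FPKM in HR, above all HP libraries (HP against HR -0.59, adjusted p = 0.0338). Irs2, an insulin receptor substrate, fell by 1.26 (adjusted p = 0.00706). Jak2, the kinase bound to the receptor, had a difference of -0.31 (interval -0.62 to 0.00, adjusted p = 0.117). Against ND no transducer passed in HR, at a median of -0.10.

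Of the inhibitors, Socs3 and Ptpn1 did not pass in liver. Socs3 was at 5.87, 4.82 and 2.97 FPKM in ND, 4.58, 4.2 and 3.72 in HP and 5.22, 4.24 and 4.78 in HR, and the groups overlapped (-0.07 for HP against ND, interval -0.48 to 0.34, limma adjusted p = 0.791). Ptpn1 was at 5.14 to 6.21, 5.28 to 6.09 and 5.17 to 6.11 FPKM (-0.03, interval -0.30 to 0.23, adjusted p = 0.853). Of 7 inhibitors tested, 1 passed, a share close to the 14.1% of all genes that fell: Socs2, a growth hormone target, fell by 2.03 in HP (SE 0.41, adjusted p = 0.00533), from 41.6, 17.0 and 10.5 FPKM to 2.97, 5.11 and 4.38. Its ND libraries spread widely.

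Of 7 responsive genes tested in liver, Junb and Pim1 rose and Igfbp2 fell in HP, where 17.6% of all genes rose and 14.1% fell. Igfbp2, an insulin-like growth factor binding protein that leptin is known to induce in liver, was at 517, 489 and 425 FPKM in ND, at 334, 224 and 149 in HP and at 616, 440 and 329 in HR. The difference was -1.09 for HP against ND (SE 0.28, limma adjusted p = 0.0151) and -0.09 for HR against ND (interval -0.70 to 0.53, adjusted p = 0.893). Junb rose by 1.24 (adjusted p = 0.036) and Pim1 by 0.61 (adjusted p = 0.0266), and neither passed after libraries were rescaled to the same sum (adjusted p = 0.0606 and 0.134). In HR, Pim1 rose by 1.08 (adjusted p = 0.0112). Among 11 genes known to regulate Lep, 4 rose and 2 fell in HP liver, or 3 and 3 after rescaling, against the same 17.6% and 14.1% of all genes (10.4% and 22.9% after rescaling). Cebpb rose by 1.73 (adjusted p = 7.91e-05) and Pparg, the adipogenic nuclear receptor, by 1.21 (adjusted p = 0.00197). Srebf1 rose by 1.33 in HR against ND (adjusted p = 0.00778).

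Over all lists 8 genes rose and 16 fell of 53 tested in HP against ND liver, against 17.6% higher and 14.1% lower over all genes. With libraries rescaled to the same sum, which moved the median of all genes from -0.02 to -0.20, these were 3 and 21, against 10.4% and 22.9%. The sum of HP 3 lacks Alb and mt-Co1, listed there at 0. The other livers held 21470 to 28320 FPKM of Alb and 29610 to 53660 of mt-Co1. All rescaled liver values carry this flaw, and its effect was not tested. The count of 24 was 11 without ND 1, 13 without ND 3, 14 without HP 2 and 15 with no filter on low values. Skeletal muscle transcripts summed to 98.9 FPKM in HP 2 and to 19.9 in HP 3, against at most 0.955 in the other livers. No share of all genes is given here for fits that leave out a library or the filter. For HR against ND 2 rose and none fell, against 2.28% higher and 0.969% lower over all genes, a share close to the background. For HP against HR 2 were higher and 7 lower, against 7.20% and 3.94% over all genes, or 1 and 9 after rescaling, against 3.94% and 7.38%, and 2 or 3 in all passed without any one of HP 2, HP 3, HR 2 or HR 3. The largest were Lifr, Cebpb (1.19), Igfbp2 (-0.997), Pparg (0.72, adjusted p = 0.0717 after rescaling), Rxra, a nuclear receptor partner of Pparg (-0.69), and Il13ra1 (-0.61).

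In fat, the lists were read over the 7 libraries, since over 9 the phosphatase gene Ptpre alone passed in HP against ND (1.98, limma adjusted p = 0.0435). That was 1 of 58 genes tested, against 2.11% of all genes. The set of libraries for the lists was thus chosen with the calls known, so the counts below depend on that choice. Of 58 genes tested, 10 rose and 8 fell in HP against ND, against 15.7% higher and 7.40% lower over all genes. The largest changes were those of Ptpre (1.72), Junb (1.67), the adaptor Grb2 (1.53), the desaturase Scd1 (-1.41), the receptor adaptor Grb10 (-1.36) and Irs2 (-1.30). Scd1 did not pass with quantile normalization (-0.41, adjusted p = 0.1). Over 9 libraries Junb and Grb2 were at 1.797 and 2.22 and Grb10 and Irs2 at -0.36 and -0.20, and Scd1 changed sign (0.27). None of these 5 passed there (adjusted p from 0.187 to 0.929). Ptpn1 rose from 9.76 and 16.2 FPKM in ND 2 and ND 3 to 30.8, 32.4 and 32.8 in HP (1.28, SE 0.20, adjusted p = 0.00535). ND 1 and HR 2 had 14.4 and 23.2 FPKM, and over 9 libraries Ptpn1 differed by 1.22 (adjusted p = 0.0738). Socs3 was at 2.33 and 3.69 FPKM in ND 2 and ND 3 and at 3.63, 4.05 and 7.87 in HP (0.58, interval -0.18 to 1.35, adjusted p = 0.245). Stat3 and Jak2 had differences of 0.06 and -0.12 (adjusted p = 0.872 and 0.691). Ghr fell by 1.03 (adjusted p = 0.00169). Over 9 libraries Socs3, Stat3, Jak2 and Ghr were at 1.05, 0.82, 0.78 and 0.62, so Jak2 and Ghr changed sign, and none passed (adjusted p from 0.509 to 0.815).

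Macrophage markers were also higher on the high-fat diet over the 7 libraries. Adgre1, Cd68, Lyz2 and Csf1r, none at 0, summed to 510 and 392 FPKM in ND 2 and ND 3. The sum was 2659 to 3737 in HP and 1278 and 1567 in HR 1 and HR 3. In ND 1 and HR 2, which were left out, it was 52.3 and 403, with Ptpn1 at 14.4 and 23.2 FPKM. The part of macrophage RNA in the rise of Ptpre, Ptpn1, Grb2 and Leprot was not tested. In HR against ND, Ptpre rose (0.94, limma adjusted p = 0.0317, or 0.0824 with quantile normalization) and the kinase subunit Pik3cb fell (-0.91, adjusted p = 0.0342, or 0.088 after rescaling). These were 1 higher and 1 lower of 58 genes, against 3.85% and 0.291% of all. Neither call remained when any one of HP 2, HP 3, HR 1 or HR 3 was also left out. In HP against HR 3 were higher and 6 lower, against 4.21% and 2.25% of all genes, with Scd1 (-1.32), Irs2 (-1.14), Grb2 (0.83), Ptpre (0.78), Grb10 (-0.74) and Ghr (-0.70) the largest. With rescaling 1 was higher and 3 lower, against 2.99% and 1.63%, and with quantile normalization 0 and 6, against 2.58% and 3.06%. All 9 calls were lost when any one of HP 1, HP 2, HP 3, HR 1 or HR 3 was also left out, and 15 genes passed without ND 2 or without ND 3. The shares of all genes in those fits are not given. Over all 9 libraries none passed. Of 11 regulators of Lep, Cebpb (1.25) and Nfya (1.23) rose and Rxra (-0.52, adjusted p = 0.16 after rescaling) fell in HP against ND, and none passed in HR against ND. The 2 higher and 1 lower in HP are shares close to the 15.7% and 7.40% of all genes. Over 9 libraries Cebpb, Nfya and Rxra were at 0.72, 1.29 and -0.12 and none passed (adjusted p = 0.589, 0.0725 and 0.891). Cebpb was at 18.8 FPKM in ND 1, above the 11.0 to 18.3 of HP. Cebpa, whose site stands in the promoter above, was at 128 and 129 FPKM in ND 2 and ND 3 (16.6 in ND 1), at 175, 138 and 172 in HP and at 143 and 117 in HR 1 and HR 3 (34.9 in HR 2), with overlap between HR and ND.

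**Figure D5:**
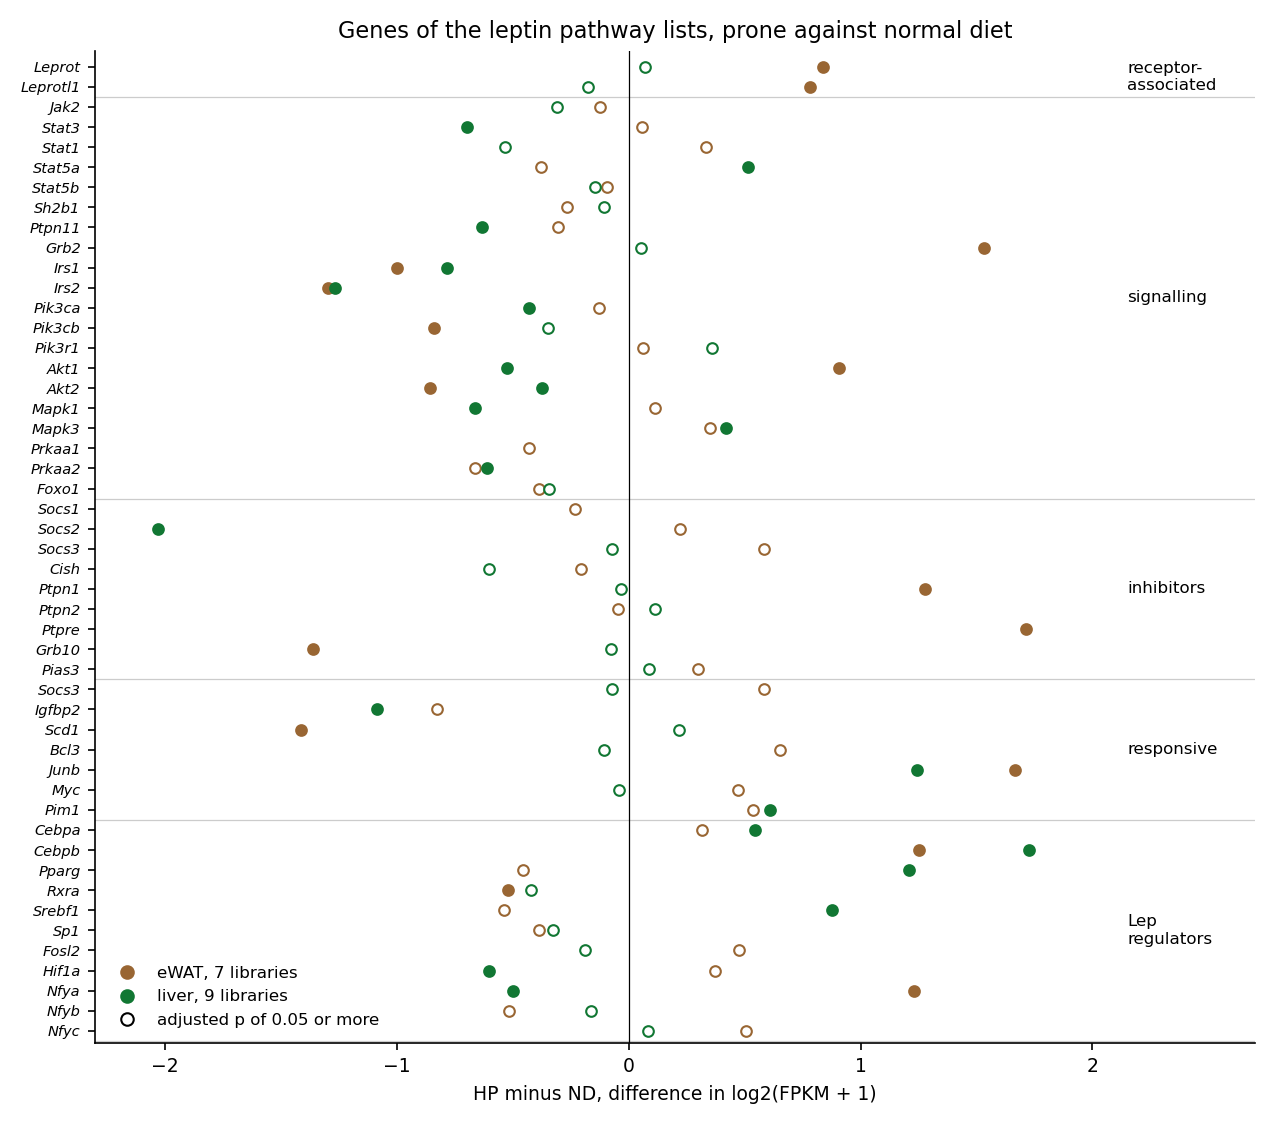
Differences in log2(FPKM + 1) of HP from ND for the genes of 5 lists, in eWAT over 7 libraries and in liver over 9, with filled points for adjusted p under 0.05. Irs2 lies at -1.30 in eWAT and -1.26 in liver, and Socs2 at -2.03 in liver.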

How the data were processed

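One table of FPKM values for 18 libraries was deposited by the authors, per the file headers and labels. The submitters' processing notes name Cufflinks 2.1.1, STAR 2.4.0 and CASAVA 1.8.2, with no roles. Genome build, annotation and strandedness: not given in the sources used here. FPKM depends on all other transcripts of a library, which means that foreign RNA depresses the rest.

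Of 23474 identifiers, 22671 were named from GENCODE M21. A gene was tested where 3 or more of the fitted libraries reached 1 FPKM. Tests used limma 3.58.1 (R 4.3.3) on log2(FPKM + 1), two-sided and with a variance trend, in 1 fit per tissue. P-values were adjusted by Benjamini-Hochberg over all genes tested, with a threshold of 0.05. The difference between tissues used all 18 libraries. Ratios were tested by exact permutation (scipy 1.17.1). The fits were tested on simulated data with 200 changed genes. Alternatives were other pseudocounts, filters and scalings, a replicate block and leaving out libraries. Members and lists were chosen with earlier results of these data known. Named genes were Lep, Lepr, 7 fixed pathway genes, in each comparison up to 6 list members with the largest change past the threshold, and 5 genes of like pattern with a mean of at least 5 FPKM. Leprotl1, Il6st, Cebpa, Nfya, Pim1 and Stat3 in HP against HR were named after their values were seen.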

Additional observations from a re-analysis of the deposited data

Results flagged for a closer look

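These genes differed between tissues in their response to diet over 18 libraries, as the fat contrast minus the liver contrast on the log2 scale. Lepr differed by 2.78 in prone mice and by 2.80 in resistant mice, each relative to ND. In ND fat it was too low to show a fall as large as that of liver. The call in resistant mice was lost with quantile normalization, with only the groups compared, with the replicate block (limma adjusted p = 0.0539) and on leaving out any one of 6 libraries. In prone mice the growth hormone target Socs2 (2.54, limma adjusted p = 0.0215), the phosphatase genes Ptpre (2.12, adjusted p = 0.00376) and Ptpn1 (1.25, adjusted p = 0.00952), and the nuclear factor Nfya (1.78, adjusted p = 0.00232) also passed. These were 4 of 58 list genes tested, a share close to the 4.98% of all genes that passed. Ptpre lay at 0.114 to 0.499 FPKM in liver, below the filter used there, so its difference rests on fat. Groups of 3 libraries are too small to test for a single outlying library.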

How the results depend on the processing

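The fall of Lepr in liver kept its direction and passed under all 16 alternatives (-3.63 to -2.60 in HP, -3.86 to -2.68 in HR against ND), as did the tissue difference in HP. For HR against ND the tissue difference did not pass with quantile normalization (2.61) or with only the groups compared (2.80), and was 2.60 to 3.04 on leaving out 1 library. Without eWAT ND 1 and HR 2, Lep passed for HP against ND (1.76) and HR against ND (1.61). With those 2 left out it also passed with quantile normalization (1.54, 1.53), rescaling (1.85, 1.70) and a pseudocount of 0.1 (1.76, 1.61), alternatives chosen after seeing the data. On leaving out 1 library, with or without those 2, Lep ran from 1.69 to 4.35 for HP against ND, 0.68 to 3.33 for HR against ND and -0.14 to 1.68 for HP against HR. Lepr in fat and every HP against HR value of Lepr never passed, and some changed sign. Lepr in fat was 0.0578 with quantile normalization and 0.0822 with rescaling for HR against ND, and without ND 1 and HR 2 was -0.17 for HP against ND and -0.0595 for HP against HR. Leaving out 1 library gave -0.17 to 0.23, -0.23 to 0.17 and -0.0595 to 0.16 for HP against ND, HR against ND and HP against HR. In liver HP against HR it gave -0.0316 to 0.29. The tissue difference for HP against HR was 0.0735 with quantile normalization, 0.0664 with rescaling and -0.23 to 0.0914 on leaving out 1 library. The pathway count of 1 in fat for HP against ND was 0 with a pseudocount of 0.1, no filter, quantile normalization, rescaling or only the groups compared. Without ND 1 and HR 2 the counts were 18, 2 and 9 for the 3 comparisons, against 23.1%, 4.14% and 6.46% of all genes. Leaving out 1 library gave 0 to 19, 0 to 6 and 0 to 15. In liver, with no filter, the counts were 15 for HP against ND and 3 for HP against HR, and 11 to 25 and 2 to 10 on leaving out 1 library. The cause of these changes was not tested. For most of these settings no share of all genes is given, so their counts do not speak to the lists in particular. Replicate numbers showed no steady pairing of libraries across diet groups. Within a tissue, correlations of deviations between same-numbered libraries of different groups ran from -0.843 to 0.625. Fat and liver libraries of the same number were not compared, so whether they share an animal cannot be told. With the replicate block Lep differed by 3.48 and, without ND 1 and HR 2, by 1.92 (HP against ND) and 1.85 (HR against ND), Lepr in liver by -2.75 and -2.83, and the tissue difference of Lepr in HR was 2.80 and did not pass (adjusted p = 0.0539). With the block the pathway counts were 0 in fat and 22, 2 and 7 in liver. Absolute depth is unknown, and values of Lepr near 1 FPKM limit what can be told apart in fat and between HP and HR livers.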
